A study of Mus musculus with 6 samples.

Results

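The transcriptome described here is that of control mouse podocytes after differentiation, measured on 2 one-colour Agilent arrays labelled as biological replicates of shControl. The cells are a podocyte line immortalised with a temperature-sensitive SV40 T antigen, transduced with a lentiviral pGIPZ vector that carries a scrambled hairpin, grown at 33 °C and then held at 37 °C for 10 days in low-glucose medium with serum. The series holds 6 arrays, and the other 4, from lines whose hairpin targets Tug1, a long noncoding RNA, enter no value below. The labels call the hairpin lines clones but do not say whether the control line is 1 clone or a pool, and they name no parental line or untransduced culture. The labels' cell type, kidney podocyte and epithelial, is set against its markers below. Of 20659 gene symbols that could be assigned to the array's probes, 13040 (63.1%) had a probe well above background on both arrays, which is the scanner software's own call, and these are the measured genes. Another 1636 had such a probe on 1 array only or different probes on each, and 5983 (29.0%) had none on either.

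Podocytes are the epithelial cells that wrap the capillaries of the glomerulus. Their interdigitating foot processes are joined by the slit diaphragm, built on nephrin (Nphs1), shaped by an actin cytoskeleton that contains synaptopodin (Synpo), and anchored through integrins to a basement membrane of laminin and collagen IV. In culture such lines proliferate while the T antigen is active and leave the cycle at the higher temperature, and cultured podocytes are known to keep only part of the marker set of the tissue. In podocytes of the kidney nephrin is abundant, and mature podocytes carry vimentin among mesenchymal features.

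Each gene is placed by the percentile of its probe signal among the 39414 gene probes ranked on an array, so that 100 is the brightest. A gene with several probes is given by the one with the highest mean percentile. A percentile orders probe signals and not transcript numbers, because probes differ in affinity and in their place along the transcript. A gene is called high when its probe was in the top 10% on both arrays, which held for 2359 symbols (11.4%), and low when it was measured on both but under the 50th percentile on each, which held for 568. Measured genes had a median percentile of 76.5. No test is possible within 1 group of 2 arrays, so every count below is a description, and lists are read against these shares. The labels do not say that the replicates came from separate cultures beyond the word biological, and both arrays lay on 1 slide.

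The brightest signals came from ribosomal proteins, glycolytic enzymes and actin-binding or calcium-binding proteins. The genes with the highest mean percentile included Gm12070, Gapdh, Rpl37a, Lgals1, Rpl29, Rpl10, Exosc2, Fau, Cryab, Gm8580, Rplp0, Rplp2, Gm5523, Rpl10a, Rpl41, Eno1b, Acta2 and Rpl36. Lgals1, which encodes the secreted lectin galectin-1, held rank 8 on replicate 1 and rank 7 on replicate 2. Cryab, the small heat shock protein alpha-B crystallin, held ranks 31 and 6. Acta2, the smooth muscle alpha actin that marks myofibroblasts, held ranks 50 and 19, with signals of 173511 and 196738 scanner units. Acta2 was therefore among the 50 brightest probes on both arrays. Gm12070, Gm8580 and Gm5523 are predicted genes, and Eno1b is a near copy of the enolase gene Eno1, so the probes of these and of the ribosomal genes may bind transcripts of more than 1 locus and their assignment is uncertain. Among the 100 brightest genes, 33 were cytosolic ribosomal proteins, 11 belonged to a housekeeping list, 9 to a mesenchymal and smooth muscle list, 6 to a mitochondrial list, 2 to a matrix list and 1 to a list of podocyte markers, with overlaps. Of 87 ribosomal symbols, a class picked by symbol after the ranking had been seen, 81 were high. The 1000 brightest probes held 62.1% of all gene probe signal on replicate 1 and 63.6% on replicate 2.

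Podocyte markers were divided by role. Of 81 markers, 64 were measured, against 63.1% of all genes, and 13 were high, against 11.4%. The high members were mostly proteins of the actin cytoskeleton and of adhesion, while nephrin, podocalyxin and Trpc6 were near the limit of measurement or under it. The median percentile of the measured markers was 82.4.

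Nephrin, the transmembrane core of the slit diaphragm, was read by 1 probe. Its signal was 63.9 on replicate 1 and 27.8 on replicate 2, which are the 59.4th and 48.5th percentiles. For scale, the lowest signals called well above background were 19.0 and 16.6, and the median negative control spot read 4.17 and 3.60. Nephrin was thus measured on each array, not far over that limit. Podxl, the sialomucin podocalyxin that coats the foot process, was not well above background on either array, with signals of 5.32 and 3.65. The calcium channel Trpc6 and the nephrin relative Kirrel2 were not well above background on either array, and Fyn, the kinase that phosphorylates nephrin, was so on 1 of them. Other partners of the complex were brighter. Fat1, a giant cadherin, was at 95.7 and 97.2, and Cd2ap, the adaptor between nephrin and actin, at 91.7 and 94.2. The polarity protein Pard3 was at 89.4 and 89.5, and Kirrel (nephrin's partner Neph1) at 82.7 and 90.04 by its brightest probe. Another Kirrel probe read 56.4 and 55.1, near the percentiles of nephrin. The remaining Kirrel probe was not well above background on either array, with signals of 4.19 and 3.64. The place of Kirrel relative to nephrin thus depends on the probe. In this role 12 of 16 genes were measured and 2 were high (12.5%, against 11.4% of all genes).

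The foot process cytoskeleton was the brightest podocyte role, with 12 of 14 members measured, 5 high and a median percentile of 88.6. Ezrin (Ezr), which links podocalyxin to actin, lay at 99.6 and 99.5. The GTPase inhibitor Arhgdia was at 99.5 on replicate 1 and 99.2 on replicate 2, non-muscle myosin Myh9 at 99.4 and 98.8, and the formin Inf2 at 97.3 and 96.1. Alpha-actinin-4 (Actn4), which crosslinks the actin of foot processes, was at 96.4 and 97.9. Most of these proteins serve the actin cortex of many cell types. Synaptopodin, the member most particular to podocytes among them, had percentiles of 86.7 and 82.9 by its brighter probe and of 66.8 and 77.4 by its other probe, so its place depends on the probe. Arhgap24, a Rac inhibitor of podocytes, was not well above background on either array, and the claudin Cldn5 was so on 1.

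All 13 genes of podocyte adhesion to the basement membrane were measured, and 3 were high. The tetraspanin Cd151, a partner of the laminin-binding integrin, was at 99.2 and 98.9, the integrin-linked adaptor Parva at 96.6 and 95.5, and the laminin chain Lama5 at 93.6 and 96.9. Col4a5, of the collagen IV network of the mature glomerular basement membrane, was at 89.6 and 95.7 and Col4a4 at 85.1 and 85.5. The remaining chain, Col4a3, was low, at 45.9 and 43.5. The integrin subunits Itga3 (58.1 and 75.4) and Itgb1 (63.1 and 80.4), and dystroglycan Dag1 (53.7 and 76.5), were each higher on replicate 2, and these genes return below.

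Among lineage transcription factors 8 of 12 were measured (66.7%, against 63.1% of all genes), with a median percentile of 72.9. High were 0, against 11.4% of all genes, and 12 genes are too few to set apart from that share. Wt1, the factor that specifies podocytes, had signals of 81.9 and 88.1, at the 62.5th and 63.9th percentiles, and the arrays nearly coincided. Foxc1 was the brightest of them, at 90.1 and 88.1, just outside the high class. Lmx1b, mutated in nail-patella syndrome, was at 74.98 and 73.3. Tcf21, a factor of early podocytes, had signals of 3.95 and 3.48, close to the median negative control spots, and Zhx2 and Kdm6a were not well above background either.

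Of the 26 secreted factors, receptors and enzymes of podocytes, 19 were measured and 3 were high (11.5%, against 11.4% of all genes). These were the intermediate filament proteins nestin (Nes), at 98.3 and 98.0, and vimentin (Vim), at 97.4 and 98.9, and the heparan sulfatase Sulf2, at 92.7 and 93.6. Vegfa, through which podocytes supply the glomerular endothelium, lay at 78.3 and 82.3. The phosphatase Ptpro (62.0 and 58.2), the chloride channel protein Clic5 (49.1 and 60.7) and the autoantigen Thsd7a (51.1 and 41.8) were near the lower end of the measured range, while Sema3g, Rhpn1, Dach1, Robo2 and Enpep had no probe well above background. Pla2r1, another podocyte autoantigen, and the cycle inhibitor Cdkn1c were so on 1 array each.

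**Figure D1:**
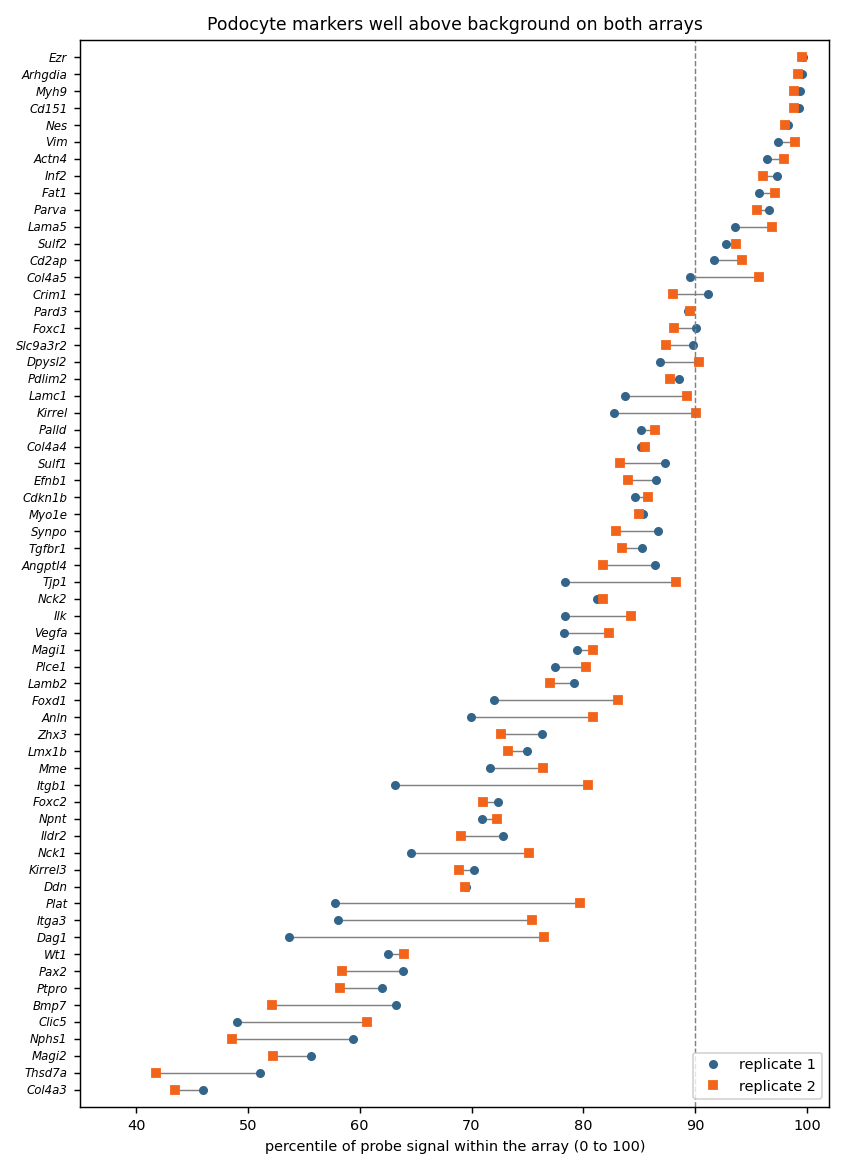
Measured podocyte markers (rows; 62 of 64 shown) are placed by the percentile of their probe signal on replicate 1 (circles) and replicate 2 (squares); the dashed line marks the 90th percentile. Cytoskeletal genes such as Ezr and Myh9 sit at the top on both arrays, Nphs1 near the bottom, and Itgb1, Plat, Itga3 and Dag1 show long gaps with replicate 2 on the right.

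Of the 12 podocyte markers with no probe well above background on either array, 9 had 1 probe and 3 had more. A dim probe sets only a limit on what that probe sees, since bright genes can have dim probes, as shown further on.

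Mesenchymal and smooth muscle genes were brighter as a list, whose members were chosen with earlier results of these data known. A place in the list does not make a gene particular to such cells, and the brightness lay in the contractile and surface roles. Of 57 such genes, 49 were measured, 25 were high and the median percentile was 93.1. Contractile proteins had 10 high members of 19, with a median of 96.4. Transgelin (Tagln), an actin-binding protein of smooth muscle, lay at 99.7 and 99.9, the myosin light chain Myl9 at 99.7 and 98.96, and Myl6 at 99.8 on both arrays. Smtn, the smooth muscle protein smoothelin, was at 98.8 and 98.9, and the enteric actin Actg2 at 95.8 and 95.1. Calponin Cnn1 lay lower, at 86.6 and 82.4. The leiomodin Lmod1 was at 62.1 and 59.8. Some other genes of smooth muscle were not well above background. The myosin heavy chain Myh11 had signals of 7.81 and 5.71 and the intermediate filament protein desmin (Des) 4.35 and 4.04, none of them well above background, and myocardin (Myocd), the smooth muscle coactivator, was dim too.

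Surface and signalling genes of mesenchymal cells had 14 high members of 25. After Lgals1, the annexin Anxa1 was at 99.7 and 99.9 (ranks 110 and 21), the calcium-binding protein S100a6 at 99.8 and 99.9, and Anxa2 at 99.7 and 99.8. The matricellular factor Ccn2, a known target of TGF-beta signalling, was at 98.7 and 99.2. N-cadherin (Cdh2) was at 98.0 and 98.1. Pdgfra, the receptor of fibroblasts, had no probe well above background, and Thy1 was so on 1 array. Mesenchymal transcription factors were intermediate, with 1 high member of 13 and a median of 76.1, near the 76.5 of all measured genes. Mrtfa, the actin-regulated coactivator of serum response factor, was at 93.5 and 92.7, serum response factor itself (Srf) at 84.8 and 85.5, Snai2 at 83.3 and 84.0 and Twist1 at 73.5 and 81.3.

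Serum response factor binds the CArG box, a motif of contractile genes, so the promoter windows of this role were searched for it. A window runs from 250 bases before to 50 bases after the gene's start, in RefSeq's table for build GRCm38.p6. The CArG box is its own reverse complement, so 1 search covers both strands, and a box may contain the letters TATAAA. Only exact matches were counted, with CC at 1 end, GG at the other and only A or T between, as in the boxes below. In all, 2 of the 16 contractile windows held an exact box, those of Cnn2 and Myl9, against 1.57% of all 27025 windows. Srf held 2, which begin 82 and 62 bases before the start, and the box of Myl9 begins 161 bases before it. The windows of Srf (chr17:46556113-46556412, minus strand) and Myl9 (chr2:156775214-156775513, plus strand) are given 5′ to 3′ with the boxes in capitals, the first as the factor's own gene, from the role of transcription factors, and the second as a high contractile gene with a box.
Srf: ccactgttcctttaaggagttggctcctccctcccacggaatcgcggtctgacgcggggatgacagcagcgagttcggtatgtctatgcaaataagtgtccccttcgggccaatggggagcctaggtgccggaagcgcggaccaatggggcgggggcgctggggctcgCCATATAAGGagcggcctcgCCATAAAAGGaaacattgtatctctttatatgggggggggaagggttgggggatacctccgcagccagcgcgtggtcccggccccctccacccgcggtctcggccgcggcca
Myl9: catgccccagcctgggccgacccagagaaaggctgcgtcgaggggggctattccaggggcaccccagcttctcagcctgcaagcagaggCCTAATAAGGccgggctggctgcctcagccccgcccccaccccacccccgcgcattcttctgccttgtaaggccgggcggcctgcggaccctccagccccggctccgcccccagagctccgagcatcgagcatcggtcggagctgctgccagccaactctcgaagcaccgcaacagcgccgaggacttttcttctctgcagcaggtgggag
Windows of Tagln and Actg2 were not in that table. A match describes letters in the window and no binding, and a window without one may have inexact boxes or boxes elsewhere.

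Epithelial junction genes were in part bright and in part not well above background. Of 29 genes, 15 were measured (51.7%, against 63.1% of all genes) and 12 had no probe well above background on either array. High were 3 (10.3%, against 11.4% of all genes). E-cadherin (Cdh1) had signals of 4.66 and 5.74, Epcam 4.165 and 3.801, and the keratins Krt8 and Krt19 were also dim. Other epithelial members were measured on both arrays. Pkp2 was at 92.2 and 88.6, Pkp3 at 86.7 and 88.6, Cdh3 at 78.8 and 82.2 and Crb3 at 80.8 and 79.0. Esrp2 lay at 79.5 and 74.5 and Esrp1 at 72.1 and 70.2. Of the tight junction genes, Ocln, Cldn1, Cldn3 and Cldn4 were not well above background, while Cgn (81.6 and 82.9), Tjp3 (69.7 and 65.5) and Cldn7 (65.9 and 63.5) were measured on both arrays, and Krt7 and Krt18 were so on 1 array each. The catenin Ctnnd1 was at 93.5 and 96.8 and the junctional adhesion molecule F11r at 90.2 and 94.3. Beside these stood Cdh16, the kidney-specific cadherin of tubules, at 99.1 and 98.7 by its only probe.

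Matrix genes covered the whole range. Of 89, 75 were measured (84.3%, against 63.1% of all genes) and 17 were high (19.1%, against 11.4%). The median percentile was 80.8. Fibrillar collagens had 0 high members of 8, and 8 genes are too few to set apart from the share of all genes. Col1a1, the main chain of type I collagen, had signals of 1009 and 1040, at the 81.9th and 82.2nd percentiles, whereas Col1a2, its partner chain, lay at 56.1 and 56.0 and Col3a1 at 46.9 and 41.9. Each of these was read by 1 probe. The 2 arrays nearly coincided for Col1a1 and for Col1a2, whose probes may differ in affinity. Among other collagens Col18a1, the source of endostatin, was high at 97.6 on both arrays, and the collagen IV chains Col4a1 and Col4a2 were at 83.6 and 87.6 and at 80.7 and 83.8.

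Glycoproteins and enzymes held most of the bright matrix genes. Sparc, a collagen-binding glycoprotein, was at 99.4 and 99.7, the laminin chain Lamb1 at 98.5 and 99.1, agrin (Agrn) at 97.9 and 98.1 and fibronectin (Fn1) at 96.2 and 98.8. Fn1 was higher on replicate 2 by 1.59 on the log2 scale, relative to the median gene. Tnc, Vtn and Lama4 were dim on both arrays, and Postn was well above background on 1. All 15 crosslinking and collagen-modifying enzymes were measured and 5 were high. Pcolce, which enhances procollagen processing, was at 99.8 and 99.7, the transglutaminase Tgm2 at 97.5 and 97.2 and the collagen chaperone Serpinh1 at 96.2 and 97.9. Among proteases and inhibitors the cathepsins Ctsb (97.9 and 98.4) and Ctsl (97.0 and 98.9) and the inhibitors Timp1 (95.1 and 92.5) and Timp2 (93.2 and 96.6) were high. The metalloproteinases Mmp2, Mmp3, Mmp9 and Mmp13 had no probe well above background, and Mmp14 lay at 54.0 and 54.4.

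Mitochondrial genes encoded in the nucleus were the brightest of the biological lists apart from housekeeping and ribosomal genes. Of 129 genes, 122 were measured and 88 were high, and the median percentile was 96.5. Complex I, which takes electrons from NADH, had 31 high subunits of 37, complexes II to IV had 23 of 28, and the ATP synthase had 15 of 16. Examples are Ndufa13 at 99.8 and 99.7, the cytochrome oxidase subunit Cox4i1 at 99.8 and 99.5, and Atp5b at 99.6 and 99.5. Cox6a2 (83.9 and 79.7) and Cox7a1 (69.2 and 60.4), the muscle forms of their subunits, and Cox4i2 (80.2 and 79.5), the alternative form of Cox4i1, were lower. The probe of Ndufa10, an accessory subunit of complex I, was well above background on replicate 2 only, with a signal of 179.8 against 12.11. The citrate cycle had 9 high genes of 18, led by Mdh2 at 98.5 on both arrays and citrate synthase (Cs) at 97.1 and 97.9.

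Genes of mitochondrial transcription and biogenesis covered a wide range. In the role of transcription, biogenesis and dynamics 10 of 30 were high, mainly carriers and porins such as Slc25a4 (98.5 and 98.8) and Vdac2 (98.6 on both arrays). Tfam, which packages and transcribes mitochondrial DNA, had signals of 44.7 and 97.0, at 54.2 and 64.9, and its second probe read 44.4 and 70.1. The remaining Tfam probe was not well above background on either array, with signals of 4.11 and 7.97. Ppargc1a, the coactivator PGC-1 alpha, was at the limit of measurement, with signals of 19.5 and 17.5 by its brighter probe, which was well above background on replicate 2 only. Ppargc1b and the helicase Twnk were dim on both arrays. The mitochondrial RNA polymerase Polrmt lay higher, at 88.3 and 85.4, as did the transcription factors Tfb2m (86.7 and 89.0) and Tfb1m (81.0 and 78.9) and the DNA-binding protein Ssbp1 (86.2 and 90.8). Of the nuclear factors, Esrra was high at 93.1 and 92.5, Nrf1 lay at 79.8 and 77.6 and Gabpa at 58.9 and 77.7.

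**Figure D2:**
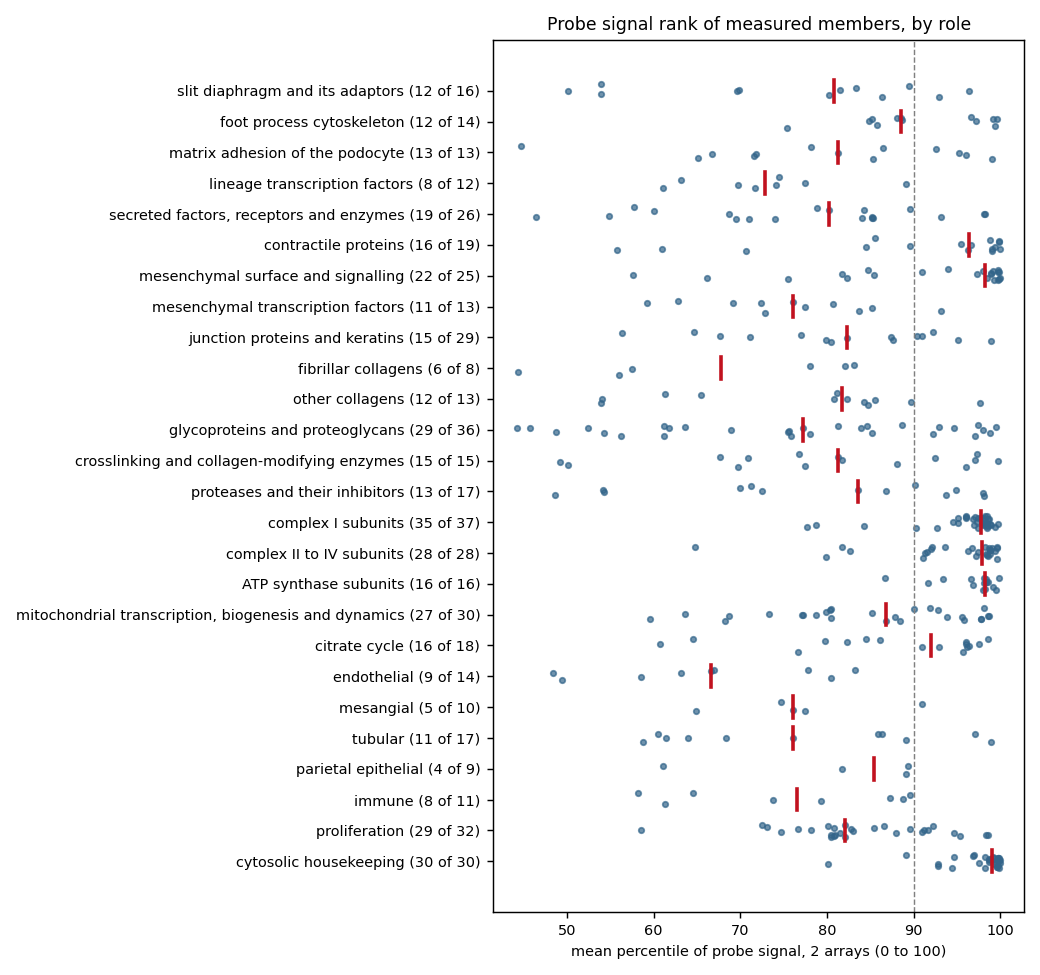
Each point is a measured gene placed by its mean percentile over the 2 shControl arrays, in rows by role, with red bars at the role's median, a dashed line at the 90th percentile, and in brackets the genes measured of those on the array. Subunits of the respiratory chain and ATP synthase and the contractile and mesenchymal surface genes crowd at the right, while fibrillar collagens, lineage transcription factors and endothelial markers lie further left.

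Markers of other kidney cells were measured about as often as any gene, 36 of 60 (60%, against 63.1% of all genes). Each of their roles is small, so 0 high members do not set a role apart from all genes. High were 2 of the 60 markers (3.33%, against 11.4% of all genes). Both belonged to the tubule, Cdh16 and the water channel Aqp1, at 96.6 and 97.7. Other genes of the tubule were middling or dim. The endocytic receptor Lrp2 lay at 83.7 and 89.1, while Slc12a1, Calb1, Havcr1 and Hnf4a had no probe well above background. Endothelial markers were measured in 9 of 14 (64.3%) with 0 high. Egfl7 (83.0 and 77.8), Ehd3 (82.0 and 84.5), the VEGF receptor Kdr (79.5 and 76.2) and Pecam1 (68.6 and 65.3) were among the measured ones, while Cdh5, Tie1, Tek, Emcn and Erg had no probe well above background. Of the immune markers 8 of 11 were measured (72.7%) and 0 were high. Cd74 (89.7 and 89.4), Csf1r (90.4 and 87.2) and Itgam (87.6 and 87.0) were the brightest of them. A second probe of Itgam, however, read 65.2 and 62.3 and a second probe of Csf1r 68.8 and 65.8. The remaining Csf1r probe was not well above background on either array. Ptprc, Lyz2 and Tyrobp were not well above background on either array. For mesangial cells 5 of 10 were measured, Pdgfrb at 89.4 and 92.6 and Foxd1, Ren1, Gata3 and Cspg4 lower. Desmin, Itga8 and Agtr1a were dim. For parietal cells 4 of 9 were measured, with a median percentile of 85.4. These were Ncam1 (89.0 and 89.6), Pax8 (87.5 and 90.7), Cd44 (82.6 and 80.8) and Pax2 (63.9 and 58.4), while Krt8, Krt19 and Cldn1 were dim. Of the 4 probes of Cd44, 2 were well above background on both arrays. In bulk RNA of a cultured line such signals do not show which cells carry a transcript. Fewer cells of a type and less RNA per cell cannot be told apart in it. Binding of these probes to other transcripts was not tested.

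Cell cycle genes had 7 high members of 32 (21.9%, against 11.4% of all genes). The brightest were the p53 inhibitor Mdm2, at 98.6 on both arrays, and the cycle inhibitors Cdkn2a (98.5 and 98.2) and Cdkn2b (94.8 and 95.7). The replication genes Rrm2, Mcm6 and Mcm7 were also high, Pcna lay at 83.2 and 87.6, and the proliferation marker Mki67 at 82.8 and 77.4, after 10 days at 37 °C. Plk1 was at 74.9 and 70.1, and Aurkb and Top2a had no probe well above background. Of 30 housekeeping genes 28 were high, with a median of 99.04.

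Brightness went along with the sequence at gene starts. Among measured genes with a promoter window (10431 of 13040), the median number of CG dinucleotides was 21 in high genes, 18 in intermediate ones and 6 in low ones, against 5 in genes with no probe well above background and 7 over all windows. The letters TATAAA, on either strand, stood in 8.75% of the windows of high genes, in 16.1% of low ones and in 19.3% of those with no such probe, against 14.2% of all. Exact boxes of the CArG type showed no such gradient, at 1.55% in high genes and 1.75% in genes with no such probe. Genes without a window could not be counted, and windows of several starts were reduced to the first listed. As examples of how the count varies, and not as typical members of a class, the window of Nphs1 (chr7:30459808-30460107, plus strand, 6 CG; an intermediate gene) and that of Atpif1, the inhibitor of the ATP synthase and the brightest mitochondrial gene with a window (chr4:132535365-132535664, minus strand, 16 CG; a high gene with fewer CG than the median of its class), are given 5′ to 3′ with each CG in capitals.
Nphs1: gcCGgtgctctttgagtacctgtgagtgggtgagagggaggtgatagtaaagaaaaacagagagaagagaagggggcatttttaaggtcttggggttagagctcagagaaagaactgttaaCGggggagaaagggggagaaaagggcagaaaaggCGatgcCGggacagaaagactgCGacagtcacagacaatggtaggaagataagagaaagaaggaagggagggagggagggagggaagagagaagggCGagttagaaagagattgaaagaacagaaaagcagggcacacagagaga
Atpif1: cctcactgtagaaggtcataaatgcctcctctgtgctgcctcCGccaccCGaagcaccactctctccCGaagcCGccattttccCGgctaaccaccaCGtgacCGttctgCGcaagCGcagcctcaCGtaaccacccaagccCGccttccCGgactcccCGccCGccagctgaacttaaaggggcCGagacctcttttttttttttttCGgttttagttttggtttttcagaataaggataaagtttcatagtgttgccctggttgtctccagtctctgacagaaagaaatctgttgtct
Slit diaphragm genes as a role did not share the CG-poor start of Nphs1, since their 13 windows had a median of 29 CG.

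The arrays agreed closely in rank. Over 21299 probes well above background on both, Pearson's r of the log2 signals was 0.965 and Spearman's rank correlation 0.947, and 895 of the 1000 brightest probes were shared. These values are across probes, which share the array and its labelling, and carry no test. Agreement in level was looser. After scaling each array to its 75th percentile, the median gene was lower on replicate 2 by 0.54 on the log2 scale (median log2 difference of -0.54, SD 0.89), so differences are given relative to that gene as well. Scaled to the 75th percentile, 1159 of 13040 genes (8.89%) were over 2-fold higher on replicate 2 and 2670 (20.5%) over 2-fold lower. Relative to the median gene 2025 (15.5%) were over 2-fold higher and 377 (2.89%) lower, while quantile normalization gave 1516 and 963. The direction of the split thus depended on the scaling, while the long tail toward replicate 2 is seen in the plot of differences. Repeated spots of a probe within an array, which show the noise of spotting alone, had a median SD of 0.064 on replicate 1 and 0.057 on replicate 2 over 225 probes spotted 10 times. The median difference of these probes between the arrays was 0.55 in size, relative to the median gene, and these kinds of spread are not the same quantity.

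**Figure D3:**
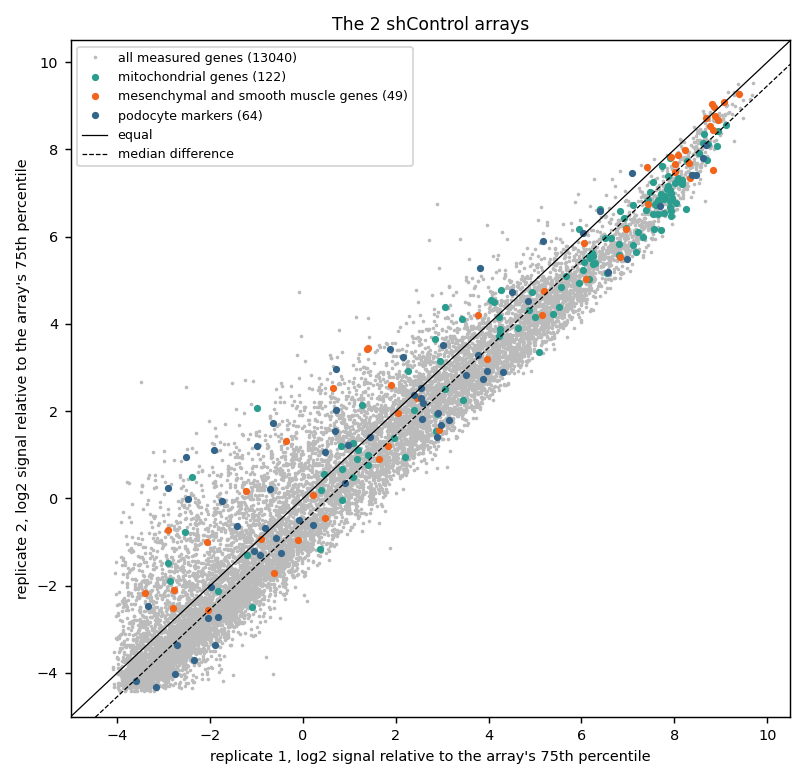
The log2 signal of the 13040 measured genes (grey), after subtraction of the array's 75th percentile, is plotted for replicate 1 (horizontal) and replicate 2 (vertical) with 3 lists in colour, a solid line of equality and a dashed line at the median difference of -0.54. Most genes follow the dashed line, and a cloud of dim and middling genes lies over it, toward replicate 2.

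By mean percentile, the genes higher on replicate 2 were most frequent in the middle of the range. Measured genes had to be well above background on both arrays. A gene with a mean near the lower limit therefore had little room to differ, and the share in the lowest bin is limited by that filter. Over 2-fold higher were 2.77% of genes between the 40th and 50th percentile, 22.2% between the 60th and 70th, 25.4% between the 70th and 80th and 4.15% above the 90th. The share over 2-fold lower stayed between 0.55% and 4.34% across the bins. The largest excess was that of Alkal1, a ligand of the receptor kinases Alk and Ltk, at 47.4 on replicate 1 and 87.0 on replicate 2 (signals of 29.1 and 2290). Profilin (Pfn1), an abundant actin-binding protein, read 57.7 and 86.5, the matrix phosphoprotein osteopontin (Spp1) 75.01 and 94.2, and thrombospondin (Thbs1) 86.4 and 98.1. Acbd5, Aga, Tusc3, Gpt2, Cct8 and Anxa3 completed the 10 largest, with log2 differences relative to the median gene of 4.52 to 4.85. In the other direction the differences were smaller. Cd80, a costimulatory ligand, read 72.0 and 45.3 and Hoxb8 82.8 and 69.7, followed by Rnf182, Fam122c, Kcne1, Dbil5, Ccl5, Ston1, Slc35d1 and Clip3, with log2 differences of -1.65 to -2.29 relative to the median gene.

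**Figure D4:**
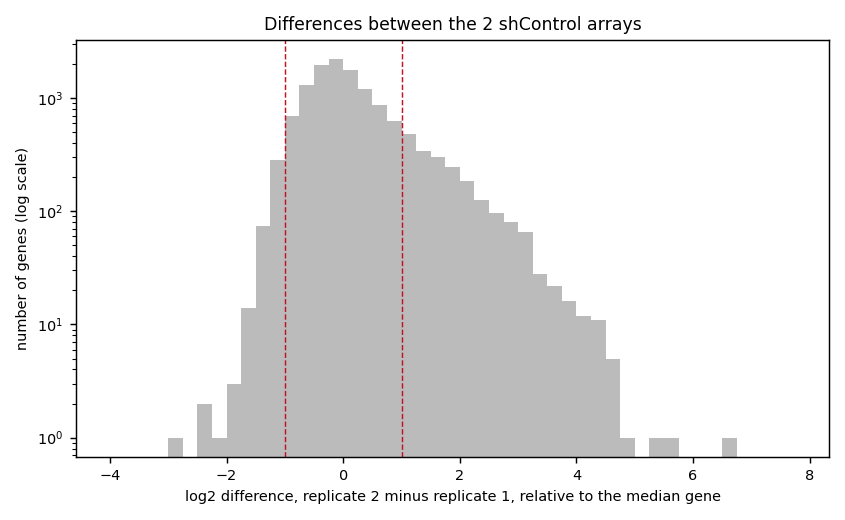
The number of measured genes (vertical, log scale) is plotted by the log2 difference of replicate 2 minus replicate 1 relative to the median gene, with dashed lines at 2-fold in either direction. The tail on the right, toward replicate 2, reaches 6.68 (Alkal1), and the one on the left -2.83 (Cd80).

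Several probes of the same gene carried the difference in part. In 2392 genes with more than 1 measured probe, the differences of the 2 brightest probes correlated with r = 0.291 across genes, which are no replicates. Of 309 genes over 2-fold higher on replicate 2 by the brightest probe, 116 were so by the next one and 225 of the next ones had a difference above 0, while 20.8% of the next probes were over 2-fold higher in all 2392 genes. Where a gene's probes lay more than 30 percentile points apart (346 genes), 7.80% were over 2-fold higher on replicate 2 by the brightest probe and 21.7% by the dimmest. This last share is near the 20.8% of all next probes, and most of the dimmest probes did not differ by so much. Gapdh, the glycolytic enzyme, is a gene whose dim probes did. Its brightest probe held ranks 2 and 9, whereas its 2 dimmest read 65.9 and 82.0 and 60.4 and 78.8, log2 differences of 3.57 and 3.53 against 0.11 for the brightest. The actin gene Actg1 showed the same, with its brightest probe at 99.4 and 99.7 and its dimmest at 48.6 and 71.8. The dimmest measured probes of Acp1 and Itgam did not, with log2 differences of 0.10 and -0.29. The 3 probes of the ribosomal gene Rplp0 stayed between 98.8 and 99.97. The positions of these probes in their transcripts and the quality of the RNA were not analysed here, and the part of either in the differences was not tested.

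**Figure D5:**
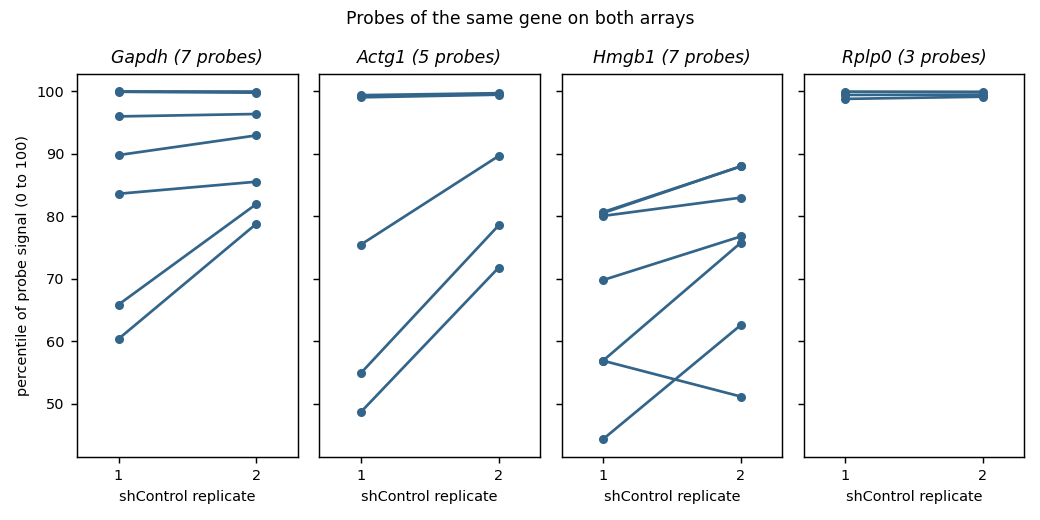
Each line joins the percentile of 1 probe on replicate 1 and replicate 2, for probes well above background on both arrays, of Gapdh (7 probes), Actg1 (5), Hmgb1 (7) and Rplp0 (3). The bright probes of Gapdh and Actg1 stay level, their dim probes rank higher on replicate 2, and those of Rplp0 stay at the top.

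The lists took different shares of this tail, but they also differ in brightness, on which the share depends. It was 4.15% of all genes above the 90th percentile and 25.4% between the 70th and 80th. The lists were not matched for brightness, so the shares below are not a property of the lists alone. Over 2-fold higher on replicate 2 were 19 of the 64 measured podocyte markers (29.7%), 10 of 49 mesenchymal genes (20.4%), and 5 of 15 epithelial junction genes (33.3%), against 15.5% of all genes, 12 of 122 mitochondrial genes (9.84%), 14 of 75 matrix genes (18.7%), 5 of 29 cell cycle genes (17.2%), 2 of 36 markers of other cells (5.56%) and 1 of 30 housekeeping genes (3.33%). Within podocyte markers the adhesion role stood out by count, with 7 of 13. Dag1, Itgb1 and Itga3 differed by 3.68, 3.56 and 3.01 relative to the median gene, each by 1 measured probe, with signals of 86.1 and 781.9 for Itgb1. A second probe of Itgb1, well above background on replicate 1 only, differed by -0.10. The protease Plat differed by 4.01 (57.8 and 79.7) and the junction scaffold Tjp1 by 2.81 (78.3 and 88.3). The percentiles of these genes therefore rest on the array chosen, whereas those of Ezr, Wt1, Acta2, Col1a1 and Mdm2 differed by under 2 percentile points.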

How the data were processed

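RNA of 2 shControl samples was measured on 1-colour (Cy3) Agilent 4x44K arrays. The deposited scanner files give an intensity per spot, and per the file headers the authors ran Agilent Feature Extraction 11.0.1.1, which subtracts the background and detrends the slide to give its processed signal. The deposited value table of the series holds log2 values of 19819 probes for the authors' arrays; how it was normalized is not stated in the labels or headers, each shControl column followed its own array (r of 0.998 and 1.00, slopes of 0.928 and 0.969; medians of 9.13 and 9.13), and 4 further columns were not used here.

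Control spots and spots with outlier marks were left out (153 and 197 of 43020 gene spots), and spots of a probe were averaged. Of 39429 probes 39414 were ranked. Symbols came from RefSeq accessions without version in a RefSeq table: 27234 probes matched (20659 symbols) and 12195 did not. Well above background were 58.3% of probes on replicate 1 and 58.2% on replicate 2, and 0 gene spots were saturated. Arrays of this number limit the precision, and no test was made. Values between arrays are log2 signals from which the 75th percentile of the array (324.2 and 362.6 in signal) was subtracted.

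The genes named are the 20 with the highest mean percentile, up to 4 highest and the defining dim members of each role, the 10 largest differences in each direction, and Nphs1, Wt1, Synpo, Podxl, Vim, Acta2, Col1a1, Fn1, Ppargc1a and Tfam. Some genes that this rule chose are left out of the text. Further members are named where a sentence needed them and were chosen after their values were seen. The 8 lists in 26 roles held 499 genes, 497 of them on the array (not Col12a1 and Cd68). Members and lists were chosen with earlier results of these data known. Promoter windows came from RefSeq. Alternatives were kept outlier spots, another background call, other rank bases, the median over probes, the deposited table, other scalings, normexp with an offset of 50 (limma 3.58.1 in R 4.3.3), and each array alone. The files lacked the mean signal that had been planned for normexp, so the median signal replaced it, a choice made after seeing the files. Steps were tested on simulated data. Python 3.11.15, pandas 2.3.3, numpy 2.4.6, scipy 1.17.1 and matplotlib 3.10.9 were used.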

Additional observations from a re-analysis of the deposited data

Results flagged for a closer look

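One external control sequence on the array, ERCC-00062_278, gave a signal outside the gene probes on both arrays. Its 10 spots read a median of 131.8 on replicate 1 and 119.1 on replicate 2, and all were well above background, against 4.17 and 3.60 for the median negative control spot. The labels do not mention a control RNA of this kind, and the source of the signal was not tested.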

How the results depend on the processing

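No paired analysis was possible because the group is single and its results come from no test. On 1 array alone, epithelial junction genes had 4 to 5 high members (5 without replicate 1) and markers of other cells 3 to 4 (4 without replicate 1); agreement of the arrays needs both. With percentiles over measured probes only, 1112 genes were high, 1 of them an epithelial junction gene and 3 cell cycle genes. With the top 5%, these were 1015, 1 and 2, and with the deposited series values 1019, 1 and 2. The median over a gene's probes left 4 high cell cycle genes. Normexp on the median signal gave 764 genes over 2-fold higher on replicate 2 and 1686 lower. Settings that keep fewer genes or a narrower class give fewer by construction; otherwise the cause was not tested. The balance of higher and lower genes did turn, from 1159 higher and 2670 lower to 1516 and 963 under quantile normalization, 1438 and 807 with the deposited values and 2026 and 373 with centring on the median probe. The other counts stayed within 1.5 times, and the correlations of the arrays lay between 0.946 and 0.972. Synpo moved to the percentile 78.5 with the median over its probes. Tfam moved to 70.1 without replicate 1, where another of its probes was the brightest, while the probe used otherwise read 64.9. Under normexp all 20 differences between the arrays of named genes shrank, for example Kcne1 from -2.45 to -0.97 and Acbd5 from 4.30 to 2.77 relative to the 75th percentile. The limits are 1 group, 1 slide, single probes for most genes and signals near background, such as those of Nphs1 and Ppargc1a.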
